A study of Mus musculus with 8 samples.

Results

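The mitosis and spindle genes are 55 genes that act from chromosome condensation to the final separation of daughter cells, chosen by symbol. A gene was matched through every non-control probe that carries its name in the scanner files, and the probe with the highest mean processed signal gave its value. All 55 were measured, by 77 probes, among 27255 genes compared. They were followed over 8 Cy3 arrays of mouse neurospheres, balls of neural stem and progenitor cells that grow in suspension. All spheres came from 1 embryonic stem cell line, EB3. Noggin, which blocks BMP signals, was present while embryoid bodies formed, and the spheres were grown with 20 ng/ml FGF2.

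Each array was 1 group. The tertiary neurospheres (P2) were measured with an shRNA vector against Nr2f1 and Nr2f2 (Nr2f1/2 shRNA), a control shRNA vector against luciferase, a miR-17 vector, and a control miRNA vector against lacZ. The primary neurospheres (P0) were measured with the same 4 lentiviral vectors. Cells from day 6 embryoid bodies had been plated with virus at an MOI of about 25. Primary spheres were collected after 6 days of culture and tertiary spheres 6 days after the secondary spheres were passaged. Whether the cultures were independent is not stated. No array lacked a vector, and no group had a second array, so a difference between 2 arrays has no replicate check.

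At the entry into mitosis, cyclin B and cyclin A bind Cdk1, Cdc25 phosphatases switch the complex on, condensin compacts the chromosomes, and Aurora and Polo kinases build the spindle. The spindle checkpoint holds the anaphase-promoting complex until every kinetochore is attached, and separase then releases the sister chromatids. Transcripts of most of these genes are known to peak in G2 and mitosis and to be low in cells that have left the cycle. In bulk RNA, fewer dividing cells and less of a transcript per cell cannot be told apart.

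Signals are given on a linear scale on which 1 is the upper quartile of the array's spots, and differences on the log2 scale. The share of non-control spots above background ranged from 57.9% to 67.9%, none was saturated, and the arrays' upper-quartile intensity was 530 to 1065. Of the 55 genes, 49 were well above background on all 8 arrays and 6 were dim on 1 to 3 tertiary arrays. All 10 neural stem and progenitor markers in a list that includes Sox1, Sox2 and Nes were well above background on every array. Nr2f1, 1 of the shRNA targets, had a signal of 13.3 with Nr2f1/2 shRNA against 29.9 with control shRNA in tertiary spheres, and 41.3 against 71.4 in primary spheres. Nr2f2, the other target, had 3.15 with Nr2f1/2 shRNA against 5.88 with control shRNA in tertiary spheres, and 7.06 against 10.02 in primary spheres. On the log2 scale the tertiary differences were -1.17 for Nr2f1 and -0.90 for Nr2f2, and the primary ones -0.79 and -0.51. On the miRNA arrays Nr2f1 was at 46.8 with miR-17 and 51.1 with control miRNA in tertiary spheres, and at 45.8 with miR-17 and 33.7 with control miRNA in primary spheres. Nr2f2 was at 3.46 with miR-17 and 2.56 with control miRNA in tertiary spheres, and at 4.92 with miR-17 and 4.63 with control miRNA in primary spheres. The control miRNA level of Nr2f2 at both passages and that of Nr2f1 in primary spheres were thus below the Nr2f1/2 shRNA level of the same passage.

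On 3 of the 4 tertiary arrays the mitosis and spindle genes stood far below their primary level, and on the tertiary Nr2f1/2 shRNA array they stood close to it. Relative to its own mean over the 4 primary arrays, the median gene was at 79.2% on the tertiary Nr2f1/2 shRNA array, against 16.6% with control shRNA. The median gene was at 7.86% on the tertiary miR-17 array and at 8.56% on the tertiary control miRNA array. The same measure on the primary arrays was 97.5% with Nr2f1/2 shRNA, 92.7% with control shRNA, 85.9% with miR-17 and 125% with control miRNA. All 55 genes had their highest tertiary value on the Nr2f1/2 shRNA array. On that array 23 of the 55 lay above their lowest primary array, and on the other 3 tertiary arrays 0 did. These orders were counted for the 55 genes alone and not over all genes, so they cannot show what is particular to the 55.

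**Figure D1:**
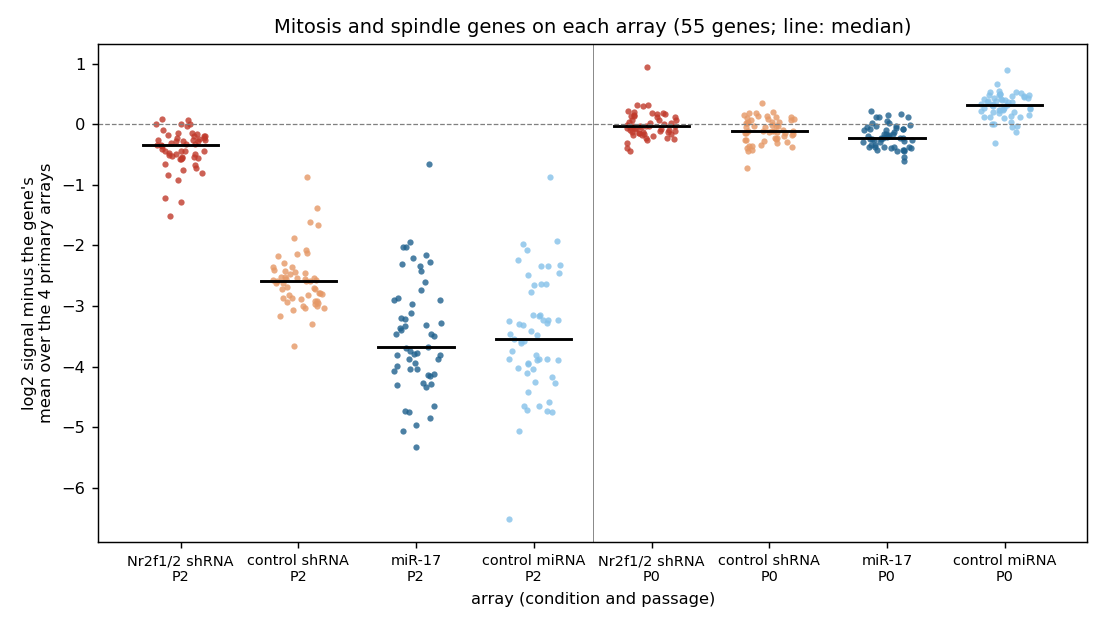
Each point is 1 of the 55 genes on 1 array, as log2 signal minus that gene's mean over the 4 primary arrays, and the black line is the median gene. The tertiary (P2) arrays are on the left and the primary (P0) arrays on the right. The tertiary Nr2f1/2 shRNA median lies at -0.34, against -2.59 with control shRNA, while the tertiary miR-17 and control miRNA medians lie at -3.67 and -3.55.

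The comparison of passages asked how tertiary spheres differ from primary spheres over all 4 vectors. All 55 genes had a lower mean in tertiary spheres, with a median log2 difference of -2.58 against -0.21 over all 27255 genes. With the dim arrays set at their detection bound the median of the 55 was -2.57. As measured the genes spanned a range between -3.75 for Kif15, which was dim on 2 tertiary arrays, and -0.64 for Bub3. With the dim arrays at their bound the largest difference was -3.29, for Kif23. At least 2-fold lower were 54 of 55, against 19.2% of all genes. In limma with vector condition as a block, 2 of the 55 passed a Benjamini-Hochberg adjusted p of 0.05. That share was near the one of all genes, of which 2.33% were called lower and 4.91% in either direction. The counts of calls in the role groups below stand against the same shares. All 55 had an unadjusted p under 0.05 with the lower sign, against 26.1% of all genes, and their adjusted p lay between 0.0370 and 0.122. The calls depended on which arrays were included. With vector as a block, leaving out either array of a vector takes that vector's whole pair out of the passage fit. Without the Nr2f1/2 shRNA arrays, an alternative chosen after seeing the data, 54 of the 55 were called, all but Bub3, and without any 1 of the other 6 arrays 0 were called.

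The genes that passed were Cdc25b, a phosphatase that starts the activation of Cdk1, and Cenpf, a large protein of the outer kinetochore. The Cdc25b probe lies at chr2:131023911-131023970 (mm9, plus strand) and that of Cenpf at chr1:191464978-191465037 (mm9, minus strand). Cdc25b signal in tertiary spheres was 2.996 with Nr2f1/2 shRNA and 1.22 with control shRNA, and 1.84 with miR-17 and 2.16 with control miRNA. In primary spheres Cdc25b was at 7.91 with Nr2f1/2 shRNA and 8.78 with control shRNA, and 8.83 with miR-17 and 8.58 with control miRNA. It fell by 2.13 on the log2 scale (SE 0.28, limma adjusted p = 0.0370), and every tertiary array lay below every primary array. Cenpf was at 0.118 with Nr2f1/2 shRNA and 0.02405 with control shRNA, and 0.0194 with miR-17 and 0.00785 with control miRNA in tertiary spheres, of which only the Nr2f1/2 shRNA array was well above background. The primary values of Cenpf were 0.274 with Nr2f1/2 shRNA and 0.118 with control shRNA, and 0.109 with miR-17 and 0.115 with control miRNA, and the tertiary Nr2f1/2 shRNA value lay among them. The passage difference of Cenpf as measured was -2.46 (SE 0.45, limma adjusted p = 0.0496), and with the dim arrays at their bound it was at least 3.74-fold lower in tertiary spheres. Cdc25b and Cenpf were also the genes that differed most with passage under Nr2f1/2 shRNA, by 2.64-fold and 2.32-fold lower in tertiary spheres. Cdc25b lost its call under 7 of 20 alternatives (adjusted p 0.0042 to 0.196 in limma) and Cenpf under 10 of 19 (0.0073 to 0.199).

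Within each vector the passages differed as follows. With Nr2f1/2 shRNA the median log2 difference of tertiary minus primary spheres was -0.36, and 2 of 55 genes were at least 2-fold lower against 6.69% of all genes. With control shRNA the median was -2.56 and 55 of 55 were at least 2-fold lower against 12.1% of all genes. With miR-17 the median was -3.45 and 54 of 55 passed 2-fold lower, all but Bub3, against 27.3% of all genes. With control miRNA the median was -3.94 and 55 of 55 passed 2-fold lower against 27% of all genes. Over the 4 pairs, 52 genes were lower in every pair, against 32.1% of all genes. The other 3, Melk, Cenpk and Spc24, were slightly higher with passage under Nr2f1/2 shRNA, by 0.08, 0.05 and 0.13 on the log2 scale. In 32 genes every tertiary array lay below every primary array, against 15.2% of all genes.

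**Figure D2:**
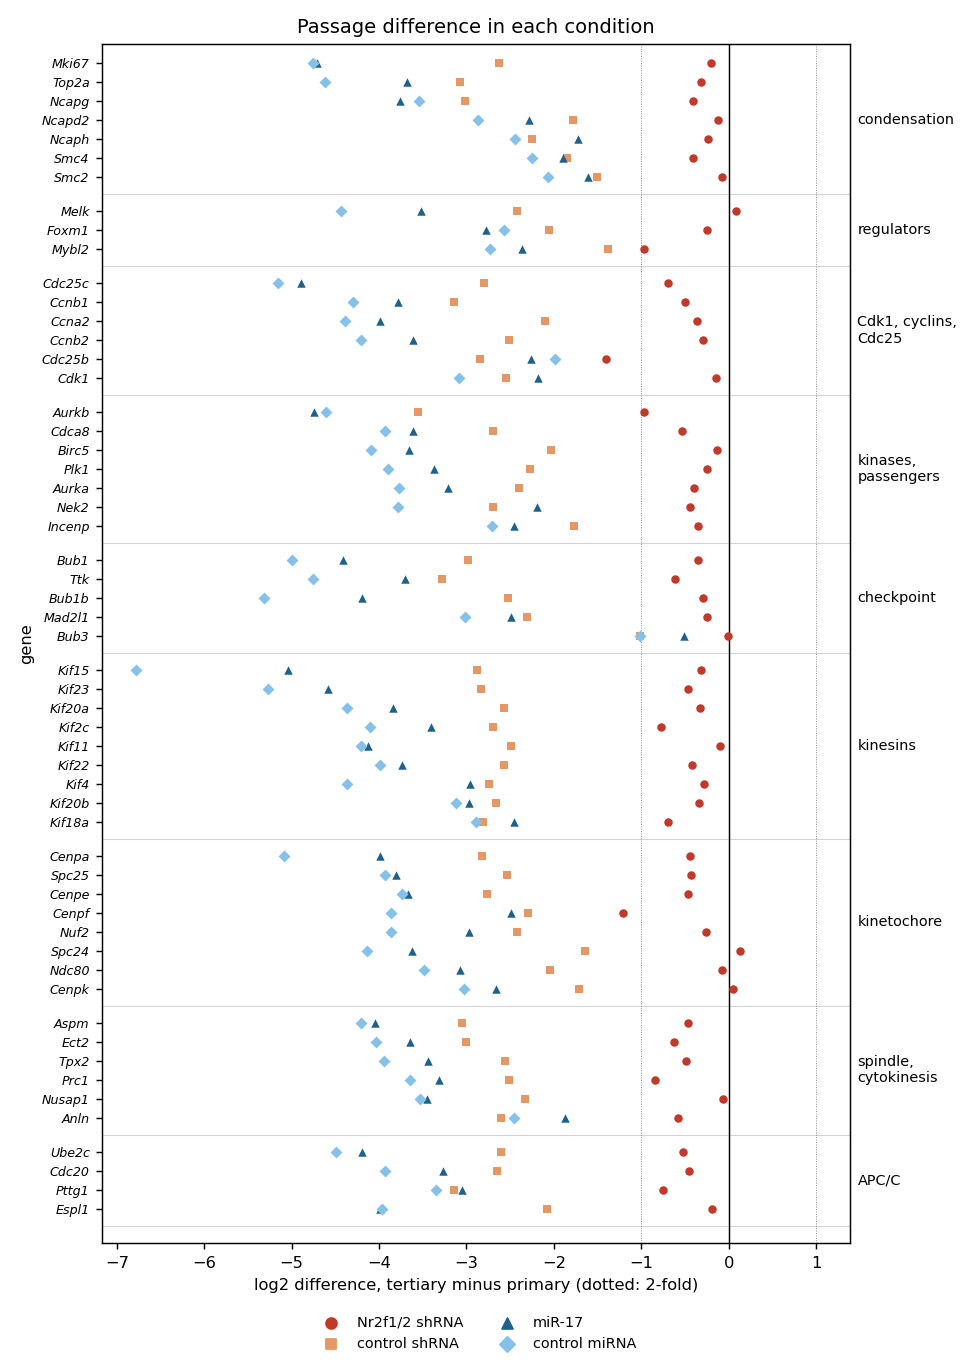
For each of the 55 genes, grouped by role, the 4 symbols give the log2 difference of tertiary minus primary spheres with Nr2f1/2 shRNA, control shRNA, miR-17 and control miRNA, and dotted lines mark 2-fold. Values are as measured, dim arrays included. The Nr2f1/2 shRNA symbols lie near 0 (median -0.36) and the control miRNA symbols farthest to the left (median -3.94).

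The comparison of Nr2f1/2 shRNA with control shRNA asked what the knockdown did at each passage, with 1 array on each side and no test. In tertiary spheres all 55 genes were higher with Nr2f1/2 shRNA, by a median of 2.22 on the log2 scale against 0.07 over all genes. The differences ran between 0.73 for Bub3 and 2.81 for Top2a, and 53 of 55 were at least 2-fold higher, against 8.33% of all genes. The exceptions were Bub3 and Mybl2, which was 1.81-fold higher. The other Mybl2 probe, also well above background on all 8 arrays, gave a log2 difference of 1.89, against 0.85 for the probe used. Over the 9 role groups the median log2 difference ran between 1.81 for the transcription regulators and 2.51 for the checkpoint genes. In primary spheres the median was 0.08 against 0.00083 over all genes, with 39 genes higher and 16 lower. There only Cenpf was at least 2-fold higher, by 1.22 on the log2 scale, against 2.95% of all genes. The interaction of knockdown with passage was fitted in limma with 1 residual degree of freedom. It compared the passage difference with Nr2f1/2 shRNA to the mean of those with control shRNA and control miRNA, so it rests on the control miRNA arrays too. The interaction had a median of 2.84 in the 55 genes and a range of 1.003 to 4.51. It called 0 of the 55 and 0 genes in all. At an unadjusted p of 0.05 it held 1076 genes, and 38 of the 55 were among them, all with the higher sign, against 1.64% of all genes. Over both passages together the knockdown contrast had a median of 1.16 in the 55 genes and passed the adjusted threshold for 0 genes in limma. An unadjusted p under 0.05 was reached by 518 genes, among the 55 only by Cenpf, against 1.04% of all genes with the higher sign.

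Markers of glial cells also differed across the tertiary arrays. The summed relative signal of 10 astrocyte markers was 105.5 on the tertiary Nr2f1/2 shRNA array, against 359.2 with control shRNA, and 807.9 with miR-17 against 944.4 with control miRNA. In primary spheres the astrocyte sum was 19.0 to 23.5. All 10 astrocyte markers were well above background on each tertiary array, and 7 or 8 on the primary arrays. The sum of 10 oligodendrocyte lineage markers was 14.8 on the tertiary Nr2f1/2 shRNA array, against 144.3 with control shRNA, and 433 with miR-17 against 399.5 with control miRNA. That sum was 8.33 to 12.8 in primary spheres. Gfap, an astrocyte filament protein, was at 0.150 with Nr2f1/2 shRNA against 3.83 with control shRNA, and 87.0 with miR-17 against 76.4 with control miRNA, in tertiary spheres. The 3 tertiary arrays with the lower mitotic signal each had higher astrocyte and oligodendrocyte sums than the tertiary Nr2f1/2 shRNA array. The astrocyte sum and the mitotic signal were both lower with miR-17 than with control miRNA in tertiary spheres, while the oligodendrocyte sum was higher. In primary spheres the median log2 difference of miR-17 minus control miRNA was 0.48 for the astrocyte markers and -0.55 for the 55 genes. That of Nr2f1/2 shRNA minus control shRNA was -0.30 for the astrocyte markers and 0.08 for the 55 genes. The part of glial RNA in the mitotic differences was not tested.

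Sums for neural stem cells, neurons, pluripotent cells and mesenchyme were read in the same way. The 10 neural stem and progenitor markers summed to 267.9 with Nr2f1/2 shRNA against 441.6 with control shRNA, and 432.7 with miR-17 against 552.8 with control miRNA, in tertiary spheres. Their primary sums were 213.8 to 331.2. Sums weigh the brightest markers most. The median log2 difference of these 10 markers, Nr2f1/2 shRNA minus control shRNA in tertiary spheres, was -0.0043. Nes, a filament protein of neural progenitors, was at 6.46 with Nr2f1/2 shRNA against 5.25 with control shRNA, and 0.907 with miR-17 against 1.24 with control miRNA, in tertiary spheres. In primary spheres Nes was at 7.201 to 10.48. Like Nes, Sox1, Sox2, Pax6 and Hes5 were higher with Nr2f1/2 shRNA than with control shRNA in tertiary spheres. The rest of the list, Vim, Fabp7, Msi1, Prom1 and Notch1, were lower. With control miRNA, Nes, Pax6, Hes5 and Notch1 were lower in tertiary than in primary spheres. Sox1, Sox2, Vim, Fabp7, Msi1 and Prom1 were higher. Over 10 neuron markers the tertiary sums were 135.3 with Nr2f1/2 shRNA against 167.7 with control shRNA, and 109.6 with miR-17 against 95.5 with control miRNA. The primary neuron sums were 143.7 to 312.4. The 10 pluripotent cell markers summed to 6.81 to 7.88 in tertiary spheres and 12.3 to 29.5 in primary spheres. Pou5f1, a defining pluripotency factor, was at or below 0.110 on every array, and Dppa3 at or below 0.0732. Other markers of this list were higher. Nanog lay at 0.905 to 1.22 over the arrays. In primary spheres Dppa5a was at 20.3 with Nr2f1/2 shRNA and 20.75 with control shRNA, and Tdgf1 at 11.2 with miR-17. The 10 mesenchyme markers summed to 38.0 with Nr2f1/2 shRNA, 76.2 with control shRNA, 94.0 with miR-17 and 80.6 with control miRNA in tertiary spheres, and to 7.29 to 37.7 in primary spheres. Their part in the result was not tested.

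The promoters of these genes share short motifs that the choice of genes did not use. The cell cycle homology region (CHR) is an element bound by the DREAM and MuvB complexes, which repress mitotic genes in quiescent cells and, with Mybl2 and Foxm1, activate them in G2. It often stands near CCAAT boxes, which NF-Y binds. RefSeq promoters (GRCm38.p6, 250 bases before to 50 after the start) were at hand for 46 of the 55 genes and were searched on both strands. TTTGAA, the CHR, was in 31 of 46 promoters (67.4%), against 12.9% of the 13669 measured genes with a promoter and 18.1% of all 27025 promoters. Between 100 bases before and 50 after the start it was in 29 of 46 (63%), against 5% of measured genes. CCAAT was in 32 of 46 (69.6%) against 38.3% of measured genes, and at least 2 copies were in 21 of 46 (45.7%) against 13.8%. Both motifs were in 26 of 46 (56.5%) against 5.26%.

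The other motifs searched were less frequent. TTTAAA, a variant CHR that reads the same on both strands, was in 10 of 46 promoters (21.7%) against 9.74% of measured genes. TTGGCGC, an E2F motif, was in 8 of 46 (17.4%) against 3.91%. TTCCCGC, another E2F motif, was in 1 of 46 (2.17%), that of Ncapg, against 7.33%. ATTGG, the reverse complement of CCAAT, shares letters with TTGGCGC, so these motifs can overlap, and a match is a description of letters, not of a bound site.

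Shown here are the promoters of the 4 genes with the largest passage differences, as measured, among those holding TTTGAA, and of Bub3, the gene with the smallest difference, so that the arrangement of the motifs can be compared. Ttk was dim on 1 tertiary array, and at its bound its difference of -2.88 was smaller than those of Bub1b (-3.08) and Mki67 (-3.07), which also hold TTTGAA. Capitals mark TTTGAA or its reverse complement TTCAAA, and CCAAT or its reverse complement ATTGG. Each is printed 5′ to 3′ on the gene's own strand.
Kif15: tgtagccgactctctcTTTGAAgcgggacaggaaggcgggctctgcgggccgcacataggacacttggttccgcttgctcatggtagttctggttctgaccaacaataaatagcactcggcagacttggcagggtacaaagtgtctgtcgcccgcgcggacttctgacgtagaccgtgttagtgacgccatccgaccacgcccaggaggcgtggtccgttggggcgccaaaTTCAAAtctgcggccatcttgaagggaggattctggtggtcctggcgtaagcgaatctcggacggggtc
Kif23: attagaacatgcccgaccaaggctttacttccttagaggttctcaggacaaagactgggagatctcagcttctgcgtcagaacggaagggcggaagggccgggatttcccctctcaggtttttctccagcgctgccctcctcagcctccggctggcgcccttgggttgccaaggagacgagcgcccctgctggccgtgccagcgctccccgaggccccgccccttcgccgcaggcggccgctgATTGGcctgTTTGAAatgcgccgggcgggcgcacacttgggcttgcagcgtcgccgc
Ttk: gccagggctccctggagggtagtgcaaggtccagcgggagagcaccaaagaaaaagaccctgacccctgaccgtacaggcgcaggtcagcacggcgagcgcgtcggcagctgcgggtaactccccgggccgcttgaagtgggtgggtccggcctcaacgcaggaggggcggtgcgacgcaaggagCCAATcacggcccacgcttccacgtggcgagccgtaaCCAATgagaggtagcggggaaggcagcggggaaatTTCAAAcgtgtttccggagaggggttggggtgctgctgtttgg
Cenpa: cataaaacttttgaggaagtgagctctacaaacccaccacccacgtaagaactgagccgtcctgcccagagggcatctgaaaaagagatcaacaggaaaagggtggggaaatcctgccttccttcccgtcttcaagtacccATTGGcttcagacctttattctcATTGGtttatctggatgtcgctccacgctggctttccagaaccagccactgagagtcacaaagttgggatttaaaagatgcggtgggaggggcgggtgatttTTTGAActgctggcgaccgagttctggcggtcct
Bub3: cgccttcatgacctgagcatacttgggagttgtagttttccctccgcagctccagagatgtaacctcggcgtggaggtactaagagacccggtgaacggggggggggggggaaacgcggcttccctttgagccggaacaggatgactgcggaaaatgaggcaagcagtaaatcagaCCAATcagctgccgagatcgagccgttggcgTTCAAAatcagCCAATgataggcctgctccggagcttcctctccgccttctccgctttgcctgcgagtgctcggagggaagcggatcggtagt
The Kif15 window is chr9:122950831-122951130 (plus strand), that of Kif23 chr9:61946750-61947049 (minus strand) and that of Ttk chr9:83834439-83834738 (plus strand). The Cenpa window is chr5:30666636-30666935 (plus strand) and that of Bub3 chr7:131560120-131560419 (plus strand). Kif15 held TTTGAA 234 bases and, as TTCAAA, 19 bases before the start and no CCAAT. In Kif23 ATTGG began 7 bases before the start and TTTGAA at base 3 after it. Ttk had CCAAT 65 and 28 bases before the start and TTCAAA at base 8 after it, and Cenpa had ATTGG 109 and 86 bases before the start and TTTGAA at base 17 after it. Bub3, whose passage difference was the smallest, held the same motifs, with CCAAT 74 and 32 bases and TTCAAA 43 bases before its start.

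**Figure D3:**
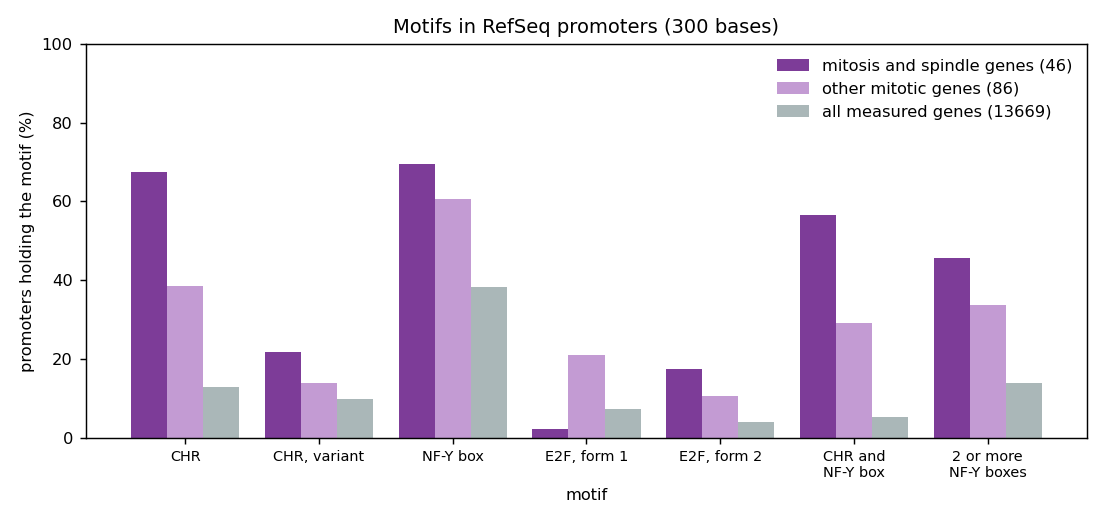
Bars give the percent of 300-base RefSeq promoters that hold each motif on either strand, for the mitosis and spindle genes, for a list of other mitotic genes and for all measured genes. The cell cycle homology region (CHR) is in 67.4% of the mitosis and spindle promoters, 38.4% of the other mitotic promoters and 12.9% of all measured ones. The NF-Y box is in 69.6%, 60.5% and 38.3% of them.

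Among the proteins of chromosome condensation and the proliferation markers, all 7 genes were lower in tertiary spheres, with a median of -1.76, and 0 of 7 passed the adjusted threshold. Mki67 encodes Ki-67, which coats mitotic chromosomes and marks cycling cells. Its signal in tertiary spheres was 30.02 with Nr2f1/2 shRNA and 5.02 with control shRNA, and 0.902 with miR-17 and 1.197 with control miRNA. In primary spheres Mki67 was at 34.5 with Nr2f1/2 shRNA and 30.9 with control shRNA, and 23.7 with miR-17 and 32.4 with control miRNA. The tertiary Nr2f1/2 shRNA array thus lay within the primary range and the other 3 far below it, a passage difference of -3.07 (SE 0.84, limma adjusted p = 0.0714).

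Top2a, the topoisomerase that untangles replicated chromosomes, was at 5.02 with Nr2f1/2 shRNA and 0.713 with control shRNA, and 0.341 with miR-17 and 0.267 with control miRNA in tertiary spheres. The primary values of Top2a were 6.24 with Nr2f1/2 shRNA and 6.01 with control shRNA, and 4.39 with miR-17 and 6.54 with control miRNA. The passages overlapped only through the tertiary Nr2f1/2 shRNA array, which lay above the primary miR-17 array. Its knockdown difference in tertiary spheres, 7.04-fold higher with Nr2f1/2 shRNA, was the largest of the 55 genes by the probes used. Smc2, an ATPase at the core of condensin, had the smallest passage difference of these 7, -1.32 (SE 0.37, limma adjusted p = 0.0742). Smc2 signal was 5.19 with Nr2f1/2 shRNA and 1.88 with control shRNA, and 1.199 with miR-17 and 1.29 with control miRNA in tertiary spheres, against 5.46 with Nr2f1/2 shRNA and 5.34 with control shRNA, and 3.65 with miR-17 and 5.41 with control miRNA in primary spheres. Here too only the Nr2f1/2 shRNA array of the tertiary spheres reached into the primary range. Its partner Smc4 and the condensin I subunits Ncapd2 and Ncaph had passage differences of -1.60, -1.76 and -1.66. Ncapg, a further condensin I subunit, was not well above background on the tertiary miR-17 and control miRNA arrays and was at least 4.87-fold lower over the passages.

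The regulators of mitotic transcription, Foxm1, Mybl2 and Melk, were lower in tertiary spheres by -1.91, -1.86 and -2.57, and 0 of 3 passed the adjusted threshold. Melk, a kinase that is high in proliferating progenitors, was at 2.64 with Nr2f1/2 shRNA and 0.446 with control shRNA, and 0.1899 with miR-17 and 0.172 with control miRNA in tertiary spheres. In primary spheres Melk was at 2.49 with Nr2f1/2 shRNA and 2.39 with control shRNA, and 2.18 with miR-17 and 3.73 with control miRNA. The tertiary Nr2f1/2 shRNA value of Melk exceeded 3 of the 4 primary values. Mybl2, the B-Myb subunit that joins MuvB at mitotic promoters, was at 2.06 with Nr2f1/2 shRNA and 1.14 with control shRNA, and 0.574 with miR-17 and 0.6201 with control miRNA in tertiary spheres. Its primary values were 4.03 with Nr2f1/2 shRNA and 2.96 with control shRNA, and 2.96 with miR-17 and 4.11 with control miRNA, so that no tertiary array reached the primary range by this probe. By the other Mybl2 probe, the tertiary Nr2f1/2 shRNA array was above the primary one, by 0.06 on the log2 scale. Foxm1, a forkhead factor that activates G2 and mitotic genes, was 3.501-fold higher with Nr2f1/2 shRNA than with control shRNA in tertiary spheres, and differed by 0.0070 on the log2 scale in primary spheres.

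Cdk1, the cyclins and the Cdc25 phosphatases had a median passage difference of -2.68. Of these 6, 1 was called, Cdc25b, against 2.33% of all genes called lower. Cdk1, the kinase that drives mitotic entry, was at 2.27 with Nr2f1/2 shRNA and 0.403 with control shRNA, and 0.485 with miR-17 and 0.412 with control miRNA in tertiary spheres. In primary spheres Cdk1 was at 2.501 with Nr2f1/2 shRNA and 2.36 with control shRNA, and 2.21 with miR-17 and 3.501 with control miRNA. The Cdk1 value on the tertiary Nr2f1/2 shRNA array lay between its primary values, and the other 3 tertiary arrays lay close together. Of the 3 probes of Cdk1, those well above background on all 8 arrays gave passage differences of -1.99 and -0.90, and the third was well above background on 5 arrays. The passage difference was -2.71 for Ccna2, -2.93 for Ccnb1 and -2.66 for Ccnb2, the cyclins that bind Cdk1. Cdc25c, the phosphatase that acts at mitotic entry, was at 0.289 with Nr2f1/2 shRNA and 0.0609 with control shRNA, and 0.0203 with miR-17 and 0.0205 with control miRNA in tertiary spheres, where the miR-17 and control miRNA arrays were not well above background. Its primary values were 0.467 with Nr2f1/2 shRNA and 0.423 with control shRNA, and 0.604 with miR-17 and 0.733 with control miRNA, at least 9.09-fold above the tertiary arrays over the 4 vectors, and the passages did not overlap.

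The mitotic kinases and the chromosomal passenger complex had a median passage difference of -2.45, and 0 of 7 passed the adjusted threshold. Aurkb, the kinase of the passenger complex, was at 0.0675 with Nr2f1/2 shRNA and 0.0124 with control shRNA, and 0.005904 with miR-17 and 0.00811 with control miRNA in tertiary spheres. Of these only the Nr2f1/2 shRNA array was well above background. The primary values of Aurkb were 0.132 with Nr2f1/2 shRNA and 0.145 with control shRNA, and 0.158 with miR-17 and 0.197 with control miRNA, each above every tertiary value. Tertiary Aurkb was at least 3.29-fold higher with Nr2f1/2 shRNA than with control shRNA, and over the passages it was at least 4.93-fold lower in tertiary spheres. Incenp, the scaffold of the complex, had the smallest passage difference of these genes, -1.82 (SE 0.44, limma adjusted p = 0.0630). Incenp signal was 10.6 with Nr2f1/2 shRNA and 3.46 with control shRNA, and 2.98 with miR-17 and 3.03 with control miRNA in tertiary spheres, against 13.5 with Nr2f1/2 shRNA and 11.8 with control shRNA, and 16.4 with miR-17 and 19.8 with control miRNA in primary spheres. The tertiary Nr2f1/2 shRNA value lay just under the lowest primary one, and the other 3 were close to each other. Birc5 (survivin) and Cdca8 (borealin), which target the complex to centromeres, were 4.45-fold and 4.63-fold higher with Nr2f1/2 shRNA in tertiary spheres. The corresponding folds were 4.53 for Plk1, the Polo kinase, 4.88 for Aurka, the spindle pole Aurora kinase, and 4.48 for Nek2, a centrosome kinase.

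The spindle assembly checkpoint genes had a median passage difference of -3.08, and 0 of 5 passed the adjusted threshold. Bub1, a checkpoint kinase at the kinetochore, was measured by a probe printed 10 times on each array, which gives the spread between spots. In tertiary spheres its signal was 2.79 ± 0.085 (SD, n = 10 spots) with Nr2f1/2 shRNA, 0.410 ± 0.035 (n = 9) with control shRNA, 0.111 ± 0.0073 (n = 10) with miR-17 and 0.118 ± 0.015 (n = 10) with control miRNA. In primary spheres it was 3.56 ± 0.097 (SD, n = 8 spots) with Nr2f1/2 shRNA, 3.22 ± 0.086 (n = 8) with control shRNA, 2.37 ± 0.084 (n = 10) with miR-17 and 3.75 ± 0.16 (n = 9) with control miRNA. The tertiary miR-17 and control miRNA values differed by less than the spread between spots, and the Nr2f1/2 shRNA value lay far above the other tertiary arrays. This spread describes the array measurement, not the variation between cultures.

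**Figure D4:**
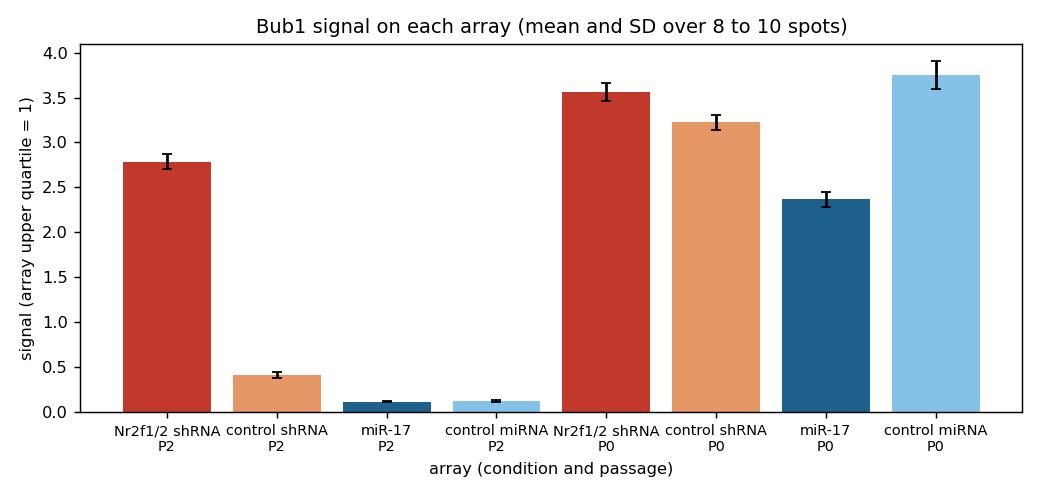
Bars give the mean Bub1 signal, on a linear scale where 1 is the array's upper quartile, and error bars the SD over 8 to 10 spots of the same probe. The tertiary arrays, on the left, stand at 2.79 with Nr2f1/2 shRNA against 0.410 with control shRNA, and 0.111 with miR-17 against 0.118 with control miRNA. The primary arrays stand between 2.37 and 3.75.

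Bub3, which carries Bub1 and Bub1b to kinetochores and also works outside mitosis, had the smallest passage difference of the 55 genes. Bub3 signal in tertiary spheres was 9.42 with Nr2f1/2 shRNA and 5.69 with control shRNA, and 6.598 with miR-17 and 5.74 with control miRNA. In primary spheres Bub3 was at 9.49 with Nr2f1/2 shRNA and 11.5 with control shRNA, and 9.38 with miR-17 and 11.6 with control miRNA. The tertiary Nr2f1/2 shRNA value lay just above the lowest primary one, and the remaining tertiary values lay below all of them. Its passage difference was -0.64 (SE 0.25, limma adjusted p = 0.122). The other checkpoint genes differed more, by -3.08 for Bub1b and -2.02 for Mad2l1, which together inhibit Cdc20, and by at least 7.38-fold for Ttk, the Mps1 kinase. Ttk was dim on the tertiary control miRNA array.

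The kinesins, motors that move along or shorten microtubules, had a median passage difference of -2.73, and 0 of 9 passed the adjusted threshold. Kif15, which keeps the bipolar spindle apart, was at 0.632 with Nr2f1/2 shRNA and 0.0997 with control shRNA, and 0.0187 with miR-17 and 0.00825 with control miRNA in tertiary spheres, of which the miR-17 and control miRNA arrays were not well above background. The primary values of Kif15 were 0.789 with Nr2f1/2 shRNA and 0.734 with control shRNA, and 0.616 with miR-17 and 0.905 with control miRNA, the lowest of which lay just under the tertiary Nr2f1/2 shRNA value. Tertiary Kif15 was at least 26.4-fold lower than primary with miR-17 and at least 29.0-fold lower with control miRNA, against 7.36-fold with control shRNA and 1.25-fold with Nr2f1/2 shRNA. Kif18a, which limits the movements of aligned chromosomes, had the smallest passage difference of the kinesins, -2.21 (SE 0.43, limma adjusted p = 0.0524). Kif18a was at 0.8304 with Nr2f1/2 shRNA and 0.202 with control shRNA, and 0.167 with miR-17 and 0.182 with control miRNA in tertiary spheres, against 1.34 with Nr2f1/2 shRNA and 1.43 with control shRNA, and 0.912 with miR-17 and 1.35 with control miRNA in primary spheres, with no overlap between the passages.

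All 9 kinesins were 4.03-fold to 6.34-fold higher with Nr2f1/2 shRNA than with control shRNA in tertiary spheres. The fold was 5.78 for Kif11, which pushes the spindle poles apart, and 5.25 for Kif20a and 5.66 for Kif23, which act in cytokinesis. The lowest of the 9 was Kif2c, a microtubule-shortening kinesin at centromeres. Kif23, whose promoter holds both motifs, had a passage difference of -3.29. Its second probe was well above background on 2 of 8 arrays, and its difference is not given.

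The centromere and kinetochore genes had a median passage difference of -2.42. Of these 8, 1 was called, Cenpf, against 2.33% of all genes called lower. Cenpa, the histone H3 variant that marks centromeres, was at 4.73 with Nr2f1/2 shRNA and 0.829 with control shRNA, and 0.389 with miR-17 and 0.288 with control miRNA in tertiary spheres. In primary spheres Cenpa was at 6.45 with Nr2f1/2 shRNA and 5.87 with control shRNA, and 6.18 with miR-17 and 9.83 with control miRNA. No tertiary value reached the primary range, and the Nr2f1/2 shRNA value came nearest. Cenpk, a subunit of the inner kinetochore network, had the smallest difference, -1.84 (SE 0.55, limma adjusted p = 0.0806). Its signal was 1.75 with Nr2f1/2 shRNA and 0.454 with control shRNA, and 0.226 with miR-17 and 0.269 with control miRNA in tertiary spheres, against 1.69 with Nr2f1/2 shRNA and 1.48 with control shRNA, and 1.43 with miR-17 and 2.201 with control miRNA in primary spheres. The tertiary Nr2f1/2 shRNA value of Cenpk exceeded 3 of the 4 primary values. The 4 subunits of the Ndc80 complex, which grips microtubule ends, were 4.57-fold (Spc24), 4.31-fold (Nuf2), 4.09-fold (Spc25) and 3.81-fold (Ndc80) higher with Nr2f1/2 shRNA in tertiary spheres. Cenpe, a kinetochore motor, was 5.39-fold higher in that comparison. By another Nuf2 probe, also well above background on all 8 arrays, the log2 difference was 2.98, against 2.11 for the probe used.

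The genes of spindle assembly and cytokinesis had a median passage difference of -2.59, and 0 of 6 passed the adjusted threshold. Aspm, a spindle pole protein whose loss causes microcephaly, was at 3.27 with Nr2f1/2 shRNA and 0.563 with control shRNA, and 0.147 with miR-17 and 0.194 with control miRNA in tertiary spheres. In primary spheres Aspm was at 4.52 with Nr2f1/2 shRNA and 4.68 with control shRNA, and 2.42 with miR-17 and 3.58 with control miRNA. The Nr2f1/2 shRNA array was the only tertiary one within the primary range. Anln (anillin), a scaffold of the cleavage furrow, had the smallest difference, -1.88 (SE 0.39, limma adjusted p = 0.0550). Anln was at 4.71 with Nr2f1/2 shRNA and 1.14 with control shRNA, and 1.26 with miR-17 and 1.24 with control miRNA in tertiary spheres, against 7.05 with Nr2f1/2 shRNA and 6.94 with control shRNA, and 4.63 with miR-17 and 6.79 with control miRNA in primary spheres. Its tertiary Nr2f1/2 shRNA value was just above the lowest primary one. Prc1, which bundles the central spindle, had the smallest knockdown difference of these 6, 2.23-fold higher with Nr2f1/2 shRNA in tertiary spheres. The fold was 4.40 for Tpx2, an activator of Aurka, 5.17 for Ect2, the exchange factor that starts the cleavage furrow, and 5.59 for Nusap1, a microtubule-binding protein. By the other Tpx2 probe, also well above background on all 8 arrays, the log2 difference was 1.32, against 2.14 for the probe used.

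The anaphase-promoting complex activators, securin and separase had a median passage difference of -2.57, and 0 of 4 passed the adjusted threshold. Ube2c, the ubiquitin-conjugating enzyme of the complex, was at 6.06 with Nr2f1/2 shRNA and 1.301 with control shRNA, and 0.494 with miR-17 and 0.587 with control miRNA in tertiary spheres. In primary spheres Ube2c was at 8.696 with Nr2f1/2 shRNA and 7.91 with control shRNA, and 9.02 with miR-17 and 13.2 with control miRNA, all above the tertiary values. Espl1 (separase), the protease that cuts cohesin, was at 0.679 with Nr2f1/2 shRNA and 0.161 with control shRNA, and 0.0676 with miR-17 and 0.0825 with control miRNA in tertiary spheres. The primary values of Espl1 were 0.773 with Nr2f1/2 shRNA and 0.6797 with control shRNA, and 1.08 with miR-17 and 1.29 with control miRNA, and the tertiary Nr2f1/2 shRNA value lay just under the lowest of them. Cdc20, the activator that the checkpoint inhibits, and Pttg1 (securin), the inhibitor of separase, were 4.62-fold and 4.98-fold higher with Nr2f1/2 shRNA in tertiary spheres.

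The comparison of miR-17 with control miRNA asked how the same genes stood with this microRNA. In primary spheres 54 of the 55 genes were lower with miR-17, by a median of -0.55 against 0.0014 over all genes. None was 2-fold lower, against 1.64% of all genes, and the exception in sign was Cdc25b, higher by 0.04. In tertiary spheres 23 genes were higher and 32 lower with miR-17, with a median of -0.08. By the probes used, Nek2 was the only gene well above background that passed 2-fold, higher by 1.22 on the log2 scale. Of all genes 3.04% were at least 2-fold higher. Second probes of Foxm1 and Kif2c, each well above background on 7 arrays, gave other values. The Foxm1 difference was 1.93 against -0.63 for the probe used, and that of Kif2c 1.24 against 0.43. Nek2 was at 0.449 with Nr2f1/2 shRNA and 0.1001 with control shRNA, and 0.196 with miR-17 and 0.0844 with control miRNA in tertiary spheres. Over both passages 0 genes passed in limma (271 had an unadjusted p under 0.05), and the median of the 55 was -0.27. The interaction of miR-17 with passage compared the passage difference with miR-17 to the mean of those with control miRNA and control shRNA. It gave 0 calls in limma (295 genes had an unadjusted p under 0.05) and a median of -0.22 in the 55 genes. Its sign thus depends on the control shRNA arrays too. Between the miRNA vectors, the median passage difference was -3.45 with miR-17 and -3.94 with control miRNA.

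**Figure D5:**
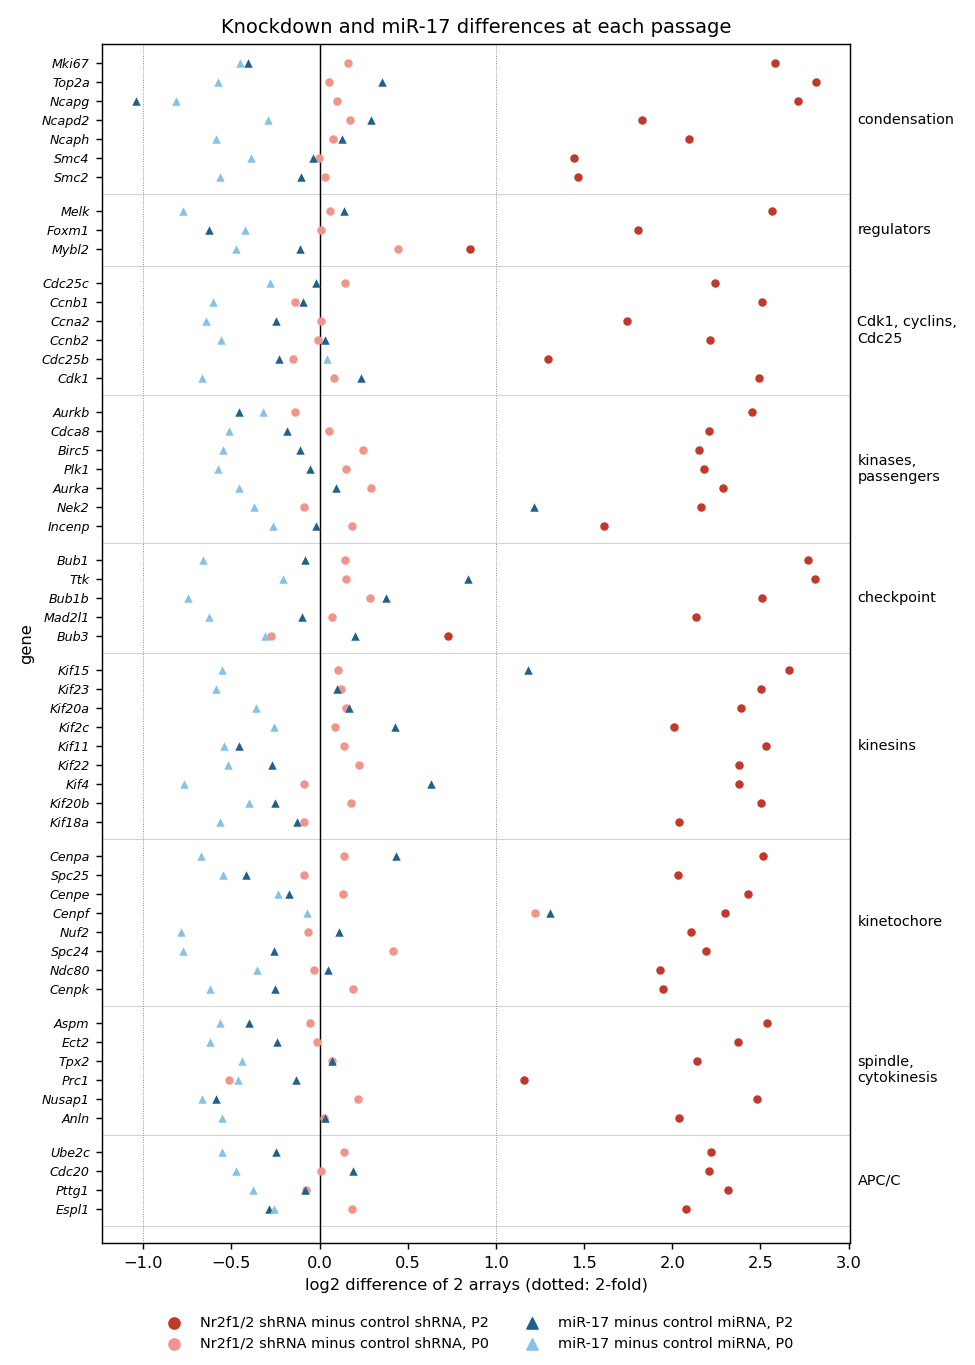
For each of the 55 genes, circles give the log2 difference of Nr2f1/2 shRNA minus control shRNA and triangles that of miR-17 minus control miRNA, dark for tertiary (P2) and pale for primary (P0) spheres. Dotted lines mark 2-fold. The dark circles lie at 0.73 to 2.81, while the pale circles (median 0.08) and both kinds of triangles (medians -0.08 and -0.55) lie mostly within 2-fold.

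The comparison of the control vectors, aimed at lacZ and luciferase, gave the size of a difference between arrays whose vectors were aimed at neither Nr2f1 nor Nr2f2 and carried no miR-17. Nr2f1 and Nr2f2 themselves differed between these arrays. Control miRNA minus control shRNA was 0.77 for Nr2f1 and -1.199 for Nr2f2 in tertiary spheres, and -1.08 and -1.11 in primary spheres, beside knockdown differences of -1.17 to -0.51. In tertiary spheres 50 of the 55 genes were lower with control miRNA than with control shRNA, by a median of -0.88 against 0.16 over all genes, and as measured 22 passed 2-fold lower against 13.2% of all genes. With the dim array at its bound 20 did, since Cdc25c and Ttk were then at least 1.95-fold and 1.52-fold lower. Kif15, also dim with control miRNA, was at least 3.19-fold lower. The 5 genes higher with control miRNA were Ncaph, Cdk1, Cdc25b, Bub3 and Anln. In primary spheres 47 genes were higher with control miRNA, by a median of 0.41 against 0.08 over all genes. Bub1b and Spc24 passed 2-fold, by 1.09 and 1.62 on the log2 scale, against 15.2% of all genes. Over both passages 0 genes passed in limma, and 2613 had an unadjusted p under 0.05. All shRNA arrays were in column 1 of the slide and all miRNA arrays in column 2, so vector system and position cannot be told apart, and likewise slide row and the pairing of passage with treatment.

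A list of 105 symbols of other mitotic genes, which holds a few genes under both an old and a new name, was read alongside, and 98 genes were measured. In tertiary spheres 84 of the 98 were lower than in primary spheres, with a median of -1.13, and 52 were at least 2-fold lower, against 19.2% of all genes. In limma 2 of the 98 were called lower, and 0 higher, at an adjusted p of 0.05, a share near the 2.33% of all genes. They were Ckap2, a spindle protein, and Gtse1, a microtubule-binding protein of G2 cells, which had the largest difference, -3.22 (SE 0.56, limma adjusted p = 0.0471). With Nr2f1/2 shRNA 85 of the 98 were higher than with control shRNA in tertiary spheres, with a median of 1.33, and 53 were at least 2-fold higher, against 8.33% of all genes. The kinetochore and checkpoint genes of this list had a passage median of -1.88 and the spindle and cytokinesis genes one of -1.61. The cohesin, condensin II and Cdk1 control genes had a median of -0.51.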

How the data were processed

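Total RNA of 8 neurosphere cultures, 1 array a group, was labelled with Cy3 from 50 ng of RNA, per the labels' protocols. Agilent mouse arrays were read with Agilent Feature Extraction 10.7.3.1 (mm9 annotation), and all 8 lay on 1 slide, per the file headers. In the scanner files that software had subtracted background from the intensity of each of 62976 spots, per the file headers. A table of signal values from the authors holds the same numbers, linear and not centred by gene, divided by a constant for each array (481 to 949). The sources used here do not give the basis of these constants.

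Control spots and 1104 outlier spots were left out. Spots of a probe were averaged as log2 intensity, relative to the array's 75th percentile. Of the probes, 39640 stood well above background on 2 or more of the 8 arrays and were kept, and a gene took its probe with the highest mean. Probe names were taken by accession from RefSeq where it held them (26413 probes), and 29240 probes kept the file's name. The 77 probes of the 55 genes had the same name in both. Passage, knockdown, miR-17 and control vectors were tested in limma 3.58.1 (R 4.3.3) with condition and passage as factors, leaving 3 residual degrees of freedom, and the interactions with 1. The interactions took the mean passage difference of the control vectors as their reference. Tests were two-sided and adjusted over 27255 genes by Benjamini-Hochberg. The fits were tested on simulated data. Differences of 2 arrays had no test and were counted at 2-fold where the brighter array was well above background. A gene not well above background on the dimmer array was given as "at least", against the higher of its own value and the lowest signal well above background on that array. As cultures are not stated to be independent, p-values measure only the spread between these arrays, whose number limits the precision.

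The genes and lists were chosen with earlier results of these data known. Values on all 8 arrays are printed for Mki67, Top2a, Cdk1, the genes called, and the genes with the largest and smallest passage difference, as measured, in each of 9 role groups. Alternatives covered background correction, normalization, filters, probes, the authors' table, the variance prior, the block, vector systems, fold limits and each array left out.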

Additional observations from a re-analysis of the deposited data

Results flagged for a closer look

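The control vectors differed in opposite directions at the 2 passages. The median of the 55 genes, control miRNA minus control shRNA, was -0.88 on the log2 scale in tertiary spheres and 0.41 in primary spheres. Bub1b was the only 1 of the 55 that passed 2-fold in opposite directions, with -1.71 in tertiary spheres and 1.09 in primary spheres. Each value rests on 1 array a side, and the difference between passages was not tested.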

How the results depend on the processing

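The direction of the passage difference held for all 55 genes under every alternative run, but the count of calls did not. In limma 1339 genes and 2 of the 55 were called. The counts were 7087 and 52 with normexp background correction, 3677 and 39 with a filter on all 8 arrays (which tests 49 of the 55), and 4320 and 42 with a trended prior. They were 0 and 0 with the shRNA arrays alone and 13792 and 54 with the miRNA arrays alone. Without the replicate block (condition left out of the fit) they were 3922 and 37. Quantile normalization and no filter each left 1 of the 55. Leaving out both Nr2f1/2 shRNA arrays, chosen after seeing the data, gave 4809 and 54. With each array left out in turn the counts ran from 0 to 4809 genes and 0 to 54 of the 55, with 4809 and 54 without either Nr2f1/2 shRNA array and 0 without any other array. For passage, leaving out either array of a vector gave the same fit, since its partner alone holds no passage difference. The knockdown median over both passages ran from -0.30 without the tertiary Nr2f1/2 shRNA array to 2.63 without the primary one. That of miR-17 ran from -1.18 to 0.63 and that of the control vectors from -1.04 to 0.58. The filter on all 8 arrays called 2 genes between control vectors. The genes that passed 2-fold lower, as measured, with control miRNA in tertiary spheres numbered 12 with normexp, 36 at a 1.5-fold limit and 5 at a 3-fold limit, against 22. The cause of these changes was not tested. Cdk1, Kif23, Nuf2, Pttg1 and Tpx2 had probes, some of them dim, that disagreed by over 1.5-fold in the passage difference. Leaving these 5 genes out does not change the fit of the others, so it could not turn a direction. In 0 of the 55 did the probes differ in the sign of the passage difference. Mybl2, Cdk1, Kif23, Nuf2 and Tpx2 had probes, some of them dim, that disagreed by over 1.5-fold in the tertiary knockdown difference. Dim signal limits Ncapg, Cdc25c, Aurkb, Ttk, Kif15 and Cenpf to bounds on some tertiary arrays.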

Other observations

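A few other mitotic genes ran against the general direction. Of the 98 measured, 14 had a higher mean in tertiary than in primary spheres, and 0 of them passed the adjusted threshold in limma. The log2 difference was 0.98 (SE 0.36, limma adjusted p = 0.113) for Rbl2, the pocket protein p130 of the DREAM complex, and 0.89 (SE 0.19, limma adjusted p = 0.0561) for Tacc1, a centrosome-associated protein. Anapc11 and Anapc13, subunits of the anaphase-promoting complex, differed by 0.67 and 0.48, with limma adjusted p of 0.103 and 0.163. In tertiary spheres Rbl2 was lower with Nr2f1/2 shRNA than with control shRNA, by -0.77, with 1 array a side and no test.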
